A study of Mus musculus with 50 samples.

Results

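10 immediate early genes were followed in the dorsal root ganglia of 25 inbred mouse strains: Fos, Fosb, Junb, Jun, Egr1, Egr3, Nr4a1, Arc, Dusp1 and Ier2. The genes were chosen by name, and every probe set annotated to 1 of them was taken, which gave 12 probe sets of the 45037 on the array that are not controls. Testing was limited to probe sets with a log2 level over 4 in 2 or more arrays. This kept 9 of the 12 probe sets and 8 of the 10 genes, out of 22205 probe sets and 11231 genes tested in all.

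Dorsal root ganglia hold the cell bodies of the sensory neurons of the body, wrapped by satellite glia and bundled with Schwann cells and vessels. Each strain gave 1 array of a male pool and 1 array of a female pool, 50 arrays in all, and each pool held RNA of 3 mice. All mice were wildtype, naive and 2 months old, and were dissected in a morning window. There was no treated group, and no mouse was stimulated on purpose. The male and the female pool are the only 2 replicates of a strain, and nothing records whether the mice of a strain shared a cage, a litter or a dissection day. Strain names are spelled as the labels give them. All levels and differences below are on the log2 scale of the deposited intensity + 1, and the number of arrays limits their precision.

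Immediate early genes are switched on within minutes by calcium, cyclic AMP and growth factor signals, from transcription factors that are already in the nucleus, and need no new protein for it. Fos and Jun family proteins pair to form AP-1, Egr proteins are zinc finger transcription factors, and other members feed back on the signals that induced them. In sensory ganglia the same genes are known as markers of recent activity and of injury, and tissue dissociation or delay can induce them too, which makes them a record of what a tissue went through before RNA was taken.

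The cyclic AMP response element, bound by CREB, is one of the DNA elements through which these genes are induced. Of the 10 members, Arc, Egr3 and Ier2 had no RefSeq promoter entry, and the window of Egr1 was left out. The promoter sequences of the other 6 (build GRCm38.p6, 250 bases before to 50 bases after the gene start) were searched. The 5 below are those of the AP-1 subunits tested (Fos, Junb and Jun), of Nr4a1 and of Dusp1. Among the members tested, Nr4a1 had the lowest correlation with Fos within strains and Dusp1 the highest over strain means. Capitals mark the half-site TGACG, or CGTCA on the other strand, and in Dusp1 also the full element TGACGTCA, in which half-sites of both strands overlap. Fos lies on the plus strand at chr12:85473640-85473939, Junb on the minus strand at chr8:84978699-84978998, Jun on the minus strand at chr4:95052173-95052472, Nr4a1 on the plus strand at chr15:101266596-101266895 and Dusp1 on the minus strand at chr17:26508423-26508722.
Fos: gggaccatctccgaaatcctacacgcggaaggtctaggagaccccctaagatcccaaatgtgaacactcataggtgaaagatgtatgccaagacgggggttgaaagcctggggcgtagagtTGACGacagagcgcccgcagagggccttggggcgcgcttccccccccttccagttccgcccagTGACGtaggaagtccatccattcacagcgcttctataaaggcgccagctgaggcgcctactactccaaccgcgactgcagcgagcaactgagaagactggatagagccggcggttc
Junb: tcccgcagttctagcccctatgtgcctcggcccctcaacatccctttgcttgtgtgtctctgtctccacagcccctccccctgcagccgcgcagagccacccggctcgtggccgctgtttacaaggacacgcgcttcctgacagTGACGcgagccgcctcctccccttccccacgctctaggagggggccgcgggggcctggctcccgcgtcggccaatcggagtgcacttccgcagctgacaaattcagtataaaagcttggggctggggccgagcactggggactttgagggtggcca
Jun: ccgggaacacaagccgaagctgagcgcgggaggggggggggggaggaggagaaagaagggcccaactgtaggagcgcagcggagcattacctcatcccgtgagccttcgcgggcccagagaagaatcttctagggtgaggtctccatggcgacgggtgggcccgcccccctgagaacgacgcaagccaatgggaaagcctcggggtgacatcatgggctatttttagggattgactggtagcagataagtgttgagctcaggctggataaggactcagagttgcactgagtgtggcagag
Nr4a1: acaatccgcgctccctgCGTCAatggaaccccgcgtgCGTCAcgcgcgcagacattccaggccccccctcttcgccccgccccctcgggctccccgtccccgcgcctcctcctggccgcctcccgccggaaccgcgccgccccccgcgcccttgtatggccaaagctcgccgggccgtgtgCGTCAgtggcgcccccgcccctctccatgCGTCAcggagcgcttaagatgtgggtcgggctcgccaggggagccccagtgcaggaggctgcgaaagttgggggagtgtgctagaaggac
Dusp1: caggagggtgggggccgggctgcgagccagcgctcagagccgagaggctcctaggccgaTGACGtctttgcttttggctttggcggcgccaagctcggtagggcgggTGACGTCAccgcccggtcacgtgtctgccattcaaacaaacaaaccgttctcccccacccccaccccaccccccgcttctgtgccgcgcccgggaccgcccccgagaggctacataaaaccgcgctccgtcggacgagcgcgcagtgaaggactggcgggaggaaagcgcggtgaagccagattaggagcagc
Half-sites began 129 and 66 bases before the start of Fos, 106 before that of Junb, 233, 213, 69 and 40 before that of Nr4a1, and 191, 143 and 140 before that of Dusp1. Fosb held 1, and the Jun window held none. A half-site occurred in 5 of the 6 windows, against 20.8% of 32851 promoters of the same length, and the full element in 1.79% of them. The EGR site GCGGGGGCG, searched on both strands, was found in the windows of Fosb and Nr4a1 and in 2.91% of all promoters. The CArG box, the site of serum response factor, was found in none of the 6 windows and in 1.63% of all promoters. These are matches of letters in a window and say nothing on binding.

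The tissue was checked against its markers. All 13 tested neuron markers were expressed in every array. Values ran from 7.42 for the lowest of Trpv1, the capsaicin receptor, to 14.20 for the highest of Nefl, a neurofilament subunit. Marker lists of other tissues were raised in some arrays. Relative to the mean of the array's sex, the liver list reached 4.77 in the female DBA/2J pool and the skeletal muscle list 3.85 in the female SM/J pool. The part of such tissue in the values of the members was not tested. Some sex-linked transcripts went against the label in the array of PL/J males (Xist) and in that of SM/J females (Eif2s3y). Xist, the long non-coding RNA of X inactivation, was at 8.97 and 9.43 in them, against at most 7.78 in the other male arrays and at least 9.58 in the other female arrays. Eif2s3y, a Y chromosome gene, was at 6.52 and 6.82 in them, against at least 6.37 in the other male arrays and at most 3.46 in the other female arrays. Kdm5d, another Y chromosome gene, followed the labels, at 3.82 in the PL/J male array (3.68 to 5.58 in the other male arrays) and at 2.67 in the SM/J female array (2.66 to 2.77 in the other female arrays). Main values are therefore also given without both strains. The lowest intensity of an array lay between 1.629 and 1.655 in males and between 1.726 and 1.744 in females, with no overlap. Whether the arrays of each sex were normalized apart is not recorded in the labels. Sex and such a difference in processing cannot be told apart. Strain shares of variance and array deviations below were taken relative to the mean of the array's own sex. Strain means and their ranges are plain means of the male and the female pool, and the strain tests held sex as a term.

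Of the AP-1 subunits, Fos and Jun were expressed in every array and Fosb in none. Fos, the founding partner of Jun in AP-1, ran from 6.84 in P/J through a median of 8.30 to 9.10 in BUB/BnJ in male pools, and from 7.77 in P/J through a median of 8.34 to 9.93 in A/J in female pools. The ranges of the sexes overlapped over most of their width. Fosb, whose truncated form accumulates with chronic stimulation, lay between 2.38 and 2.43 in male and between 2.40 and 2.46 in female pools, at the floor of the array, and gave no usable value.

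Junb, a Jun family member that often acts against Jun, had a median of 4.72 in male pools, with a range of 3.88 in 129S1/Sv1mJ to 5.17 in NZO/HILtJ, and a median of 3.34 in female pools, with a range of 2.80 to 4.16. It was above 4 in 25 of 50 arrays, so that most of the female values sat close to the floor. Many male values also lay close to their median, such as 4.714 in AKR/J, 4.717 in BALB/CByJ and 4.718 in C57BR/cdJ. Jun itself ranged from 8.26 to 8.97 in male and from 8.13 to 9.53 in female pools on its leading probe set, the one of highest mean. Its second probe set had a mean of 7.82.

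The zinc finger factors Egr1 and Egr3 were above 4 in every array. Egr1 had a median of 7.24 in male pools, with the lowest value of 6.66 in FVB/NJ and the highest of 8.28 in BTBT T+tf/J, and a median of 7.34 in female pools, from 6.60 in RIIIS/J to 8.02 in c57BL/6J. Egr3 had a median of 6.25 in male pools, from 5.10 in c57BL/6J to 7.97 in AKR/J, and a median of 5.76 in female pools, from 4.66 in NZO/HILtJ to 7.002 in SM/J. The lowest and highest Egr3 arrays were thus several-fold apart in both sexes. A second Egr3 probe set lay at 1.93 on average and was not above 4 in any array.

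Nr4a1 (Nur77), an orphan nuclear receptor, had the narrowest range of strain means among the members tested, with values of 8.10 to 8.75 in male and 7.90 to 8.77 in female pools. Dusp1, a phosphatase that switches off MAP kinases and so closes the induction, lay between 7.62 in RIIIS/J and 8.40 in KK/HIJ in male pools and between 7.37 in SWR/J and 8.53 in NOD/LtJ in female pools. Ier2, a small nuclear protein, ranged from 4.78 to 5.49 in male and from 3.69 to 4.98 in female pools and was above 4 in 45 of 50 arrays. Many Ier2 values lay close to the median of their sex, 5.10 in male and 4.14 in female pools. Arc, the postsynaptic regulator of AMPA receptor traffic in central neurons, did not reach 4 in any array, and its highest values were 3.23 in the male AKR/J and 3.15 in the female NZW/LacJ pool.

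**Figure D1:**
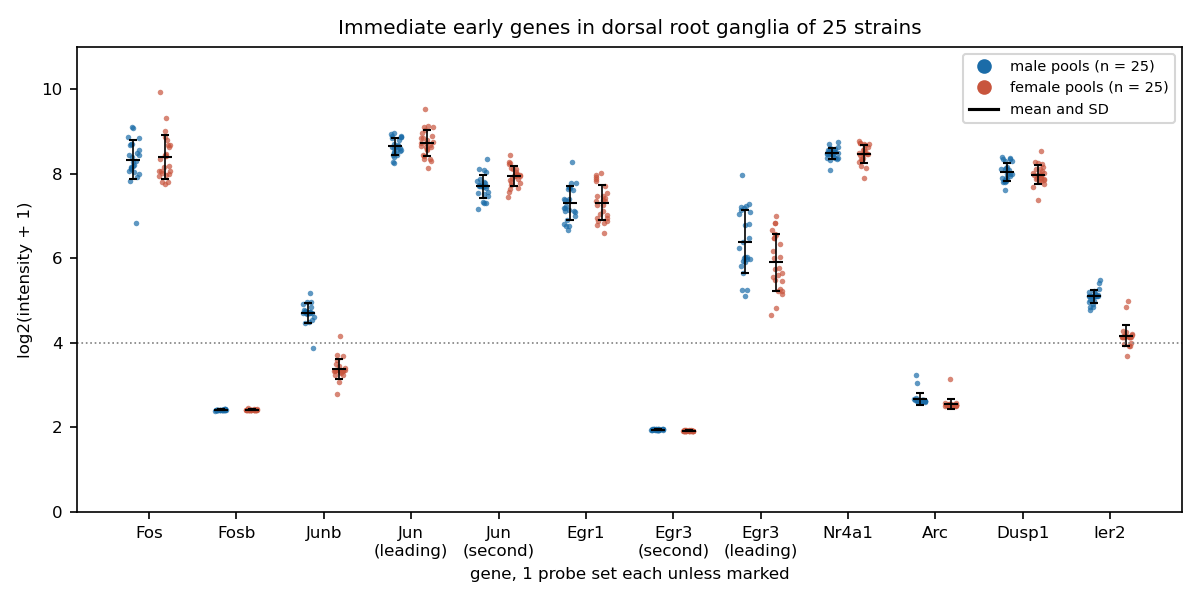
Log2(intensity + 1) of each probe set of the 10 immediate early genes, with 1 point per array, male pools on the left and female pools on the right of each gene, and the mean and SD of 25 arrays in black. The dotted line is the level of 4 used for testing, under which Fosb, Arc and the second Egr3 probe set lie in all arrays, and the male points of Junb and Ier2 lie above most of the female points.

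Differences among the 25 strains were tested with limma's moderated F test, sex being a term of the model, which called 5475 of 22205 probe sets, 24.7% of those tested. Of the 8 members tested, Egr3 alone was called, 1 of 8 genes, which is below that share. Egr3 averaged 7.40 in AKR/J (7.97 in the male and 6.82 in the female pool), 6.94 in PL/J and 6.88 in BALB/CByJ. It averaged 5.32 in NZO/HILtJ and 5.29 in c57BL/6J (5.10 in the male and 5.48 in the female pool). The range of strain means was 2.11, a 4.31-fold span (limma F test, adjusted p = 0.00109). Without SM/J and PL/J the adjusted p was 0.00142.

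The other 7 members were not called for strain. Fos had the widest range of these, 1.67, between A/J at 8.97 and P/J at 7.30 (limma F test, adjusted p = 0.200). Egr1 ranged by 1.18, from 7.88 in AKR/J to 6.70 in RIIIS/J (limma adjusted p = 0.122). The ranges of Jun, Junb, Dusp1, Ier2 and Nr4a1 lay between 0.67 and 0.92. Without Junb, their limma adjusted p-values ran from 0.122 for Nr4a1 to 0.282 for Ier2. Junb had 0.810, but 24 of its 25 female values were not above 4, and many male values lay close to their median of 4.72. The Junb test therefore cannot say whether strains differ. The second Jun probe set ranged by 0.76 between c57BL/6J and DBA/2J (limma adjusted p = 0.0611), and its lowest strain was that of the leading one. The order of other strains differed: c57BL/6J, highest on the second probe set, was at place 21 of 25 on the leading one (8.51). Leaving out 1 array added a second called member in 6 of 50 cases: Fos without the male A/J array (limma adjusted p = 0.0136), Egr1 without the female BTBT T+tf/J array (0.0309), Nr4a1 without the male or the female c57BL/6J array (0.0404 and 0.0480) and Dusp1 without the male or the female SWR/J array (0.0137 and 0.0372). For none of the members were neighbouring strains in the order of means apart by more than 2 standard errors of a difference between 2 strain means. The widest such step was 0.61 between FVB/NJ and P/J for Fos (standard error 0.44), and for Egr3 it was 0.46 between AKR/J and PL/J (standard error 0.45).

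Each strain was then set against the other 24 in the same fit, and only differences of 1 or more were called. Over all probe sets and strains this called 1.14% of the comparisons, and 12.7% of probe sets were called in at least 1 strain. Members were called in 2 cases. Egr3 was 1.30 higher in AKR/J than in the other strains (SE 0.32, limma adjusted p = 0.0110), and Fos was 1.11 lower in P/J (difference -1.11, SE 0.32, limma adjusted p = 0.0351). The P/J pools had Fos values of 6.84 in males and 7.77 in females, the lowest of both sexes. Both calls rested on the male array of the strain: without it the Egr3 difference in AKR/J was 0.96 (limma adjusted p = 0.301) and the Fos difference in P/J was -0.65 (limma adjusted p = 0.498). In these fits the remaining lone array was assumed to vary like the others.

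Smaller differences passed the adjusted p but not the size. Nr4a1 was lower in BTBT T+tf/J, at 8.10 in the male and 7.90 in the female pool, the lowest of both sexes (difference -0.50, limma adjusted p = 0.00459). The male BTBT T+tf/J and the female P/J array stood apart in a sign of RNA quality, the log2 difference between 3' and 5' Gapdh control probe sets, at 0.60 and 0.34, against a median of -0.59 over all arrays. Without these 2 arrays the Fos difference in P/J was -1.55 (limma adjusted p = 0.0334), and the part of this signal in the Nr4a1 difference was not tested. Ier2 was higher in MRL/MpJ, at 5.27 in the male and 4.98 in the female pool (difference 0.51, limma adjusted p = 0.0365). A/J, the strain with the highest Fos mean, had unlike pools, with Fos at 8.003 in the male and 9.93 in the female pool, the widest split of any strain.

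**Figure D2:**
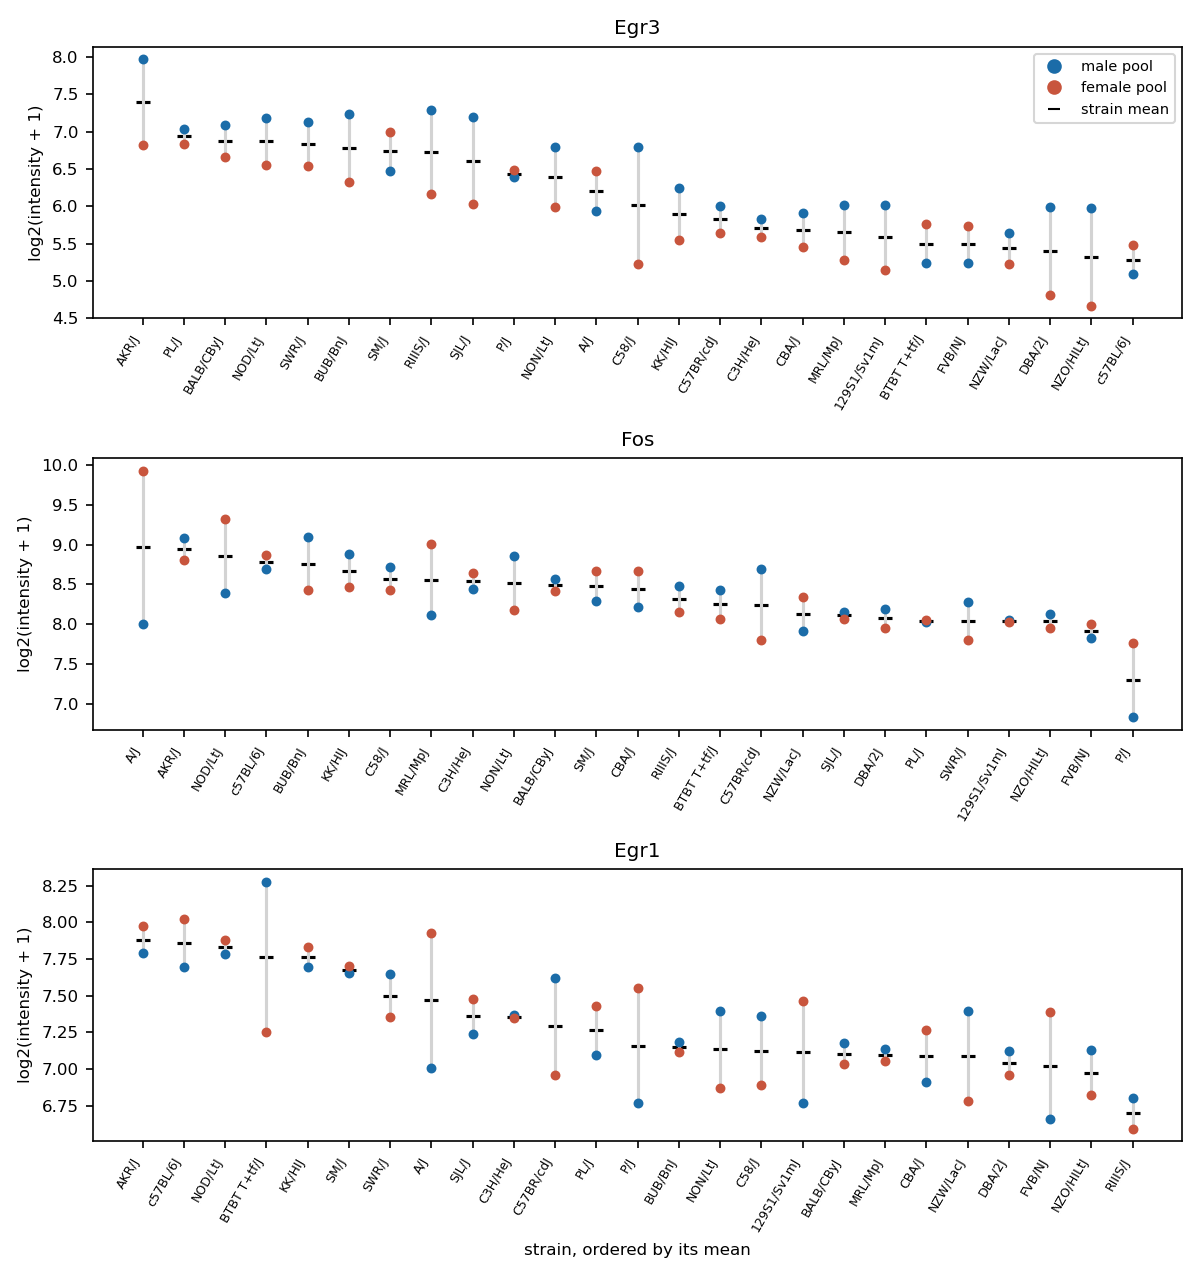
Egr3, Fos and Egr1 as log2(intensity + 1) in each strain, ordered by strain mean (black bar), with the male pool in blue and the female pool in red joined by a grey line. The Egr3 means span 2.11 from AKR/J to c57BL/6J, the Fos pools of A/J are 1.92 apart, and P/J has the lowest Fos mean at 7.30.

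How much of the variation was shared by the 2 pools of a strain was measured as the strain share of variance, an intraclass correlation of sex-centred values. It is 1 when both pools of each strain agree, near 0 when they are no more alike than pools of different strains, and its 95% interval rests on normal theory. Egr3 had the highest share among the members at 0.61 (0.28 to 0.80), above 89.0% of all genes tested. Nr4a1 followed at 0.40 (0.01 to 0.68), then Egr1 at 0.28 (-0.12 to 0.60), Dusp1 at 0.22 (-0.18 to 0.56), Ier2 at 0.21 (-0.20 to 0.55), Fos at 0.20 (-0.20 to 0.55), Jun at 0.19 (-0.21 to 0.54) and Junb at -0.17 (-0.52 to 0.23). The second Jun probe set had 0.41 (0.02 to 0.69). The median of the 8 members was 0.21, against 0.25 over all genes tested, and the intervals overlapped except those of Egr3 and Junb. For Junb, 24 of 25 female values were not above 4, so that its share cannot say whether its 2 pools agree.

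The spread between the pools of a strain separated the members in another way. The SD of male minus female differences over strains was 0.63 for both Egr3 and Fos, a spread wider than that of 97.2% and 97.1% of all genes, and 0.48 for Egr1, wider than that of 89.2%. Nr4a1, at 0.19, lay above 10.6% of genes. Fos and Egr3 therefore differed about equally between pools of 1 strain, while the strain means of Egr3 spread further.

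**Figure D3:**
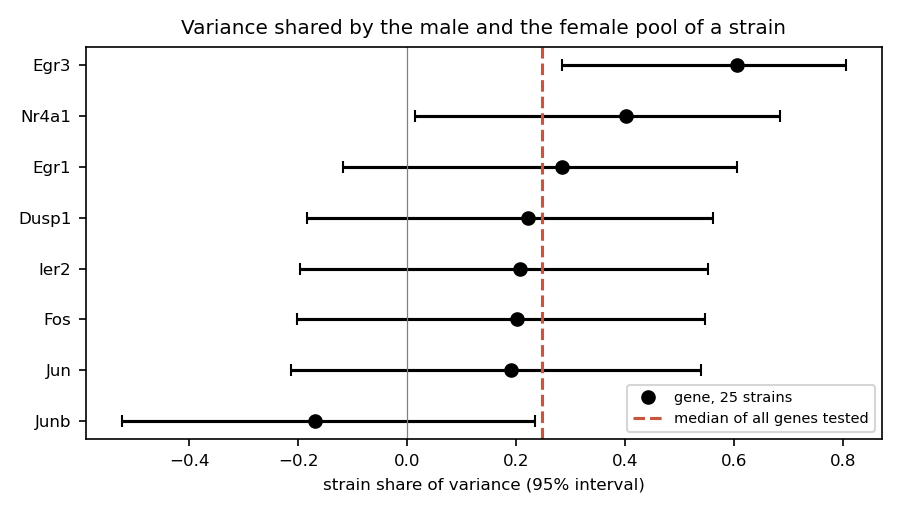
Strain share of variance of the 8 members tested, as points with 95% intervals, and the median of all genes tested as a dashed line. Egr3 at 0.61 lies furthest above the dashed line at 0.25, and Junb at -0.17, with most female values close to the floor, lies below 0.

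Males and females were compared with strain as a block. Over all probe sets 23.6% were called higher and 34% lower in male pools. Among the members, Ier2 was 0.93 higher in male pools (SE 0.05, limma adjusted p = 2.21e-14), in 25 of 25 strains, and 0.57 higher with a pseudocount of 16. Many Ier2 values lay close to the median of their sex, 5.10 in male and 4.14 in female pools. The Ier2 difference is therefore given as a description. Egr3 was 0.49 higher in male pools (SE 0.12, limma adjusted p = 0.000863), in 19 of 25 strains. Junb was above 4 in 24 of 25 male and in 1 of 25 female arrays, so that it was tested only through its male values. Its male minus female difference of 1.33, or 0.69 with a pseudocount of 16, is against values at the floor and is given as a description. Many male Junb values also lay close to their median of 4.72. Without SM/J and PL/J the differences were 0.93 for Ier2, 0.55 for Egr3 and 1.32 for Junb. The second Jun probe set was 0.25 lower in male pools (difference -0.25, SE 0.06, limma adjusted p = 0.000451), with the female pool higher in 22 of 25 strains, while the leading one was not called (difference -0.08, SE 0.07, limma adjusted p = 0.292). Fos (-0.06, limma adjusted p = 0.697), Egr1 (-0.01, 0.934), Nr4a1 (0.01, 0.828) and Dusp1 (0.07, 0.313) were not called either.

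Junb and Ier2 are the members tested whose values lay closest to the floor. Of the probe sets not above 4 in any array, the second of Egr3 was higher in the male pool in 25 strains, Arc in 24 and Fosb in 11. The male pool was higher in all 25 strains for 2.75% of the 22205 probe sets, and for 4.87% of the 3529 with a mean between 4 and 5. Of the array's 45 bacterial and phage control probe sets, the male pool was higher in all strains for 0 and the female pool for 4 (8.89%). The part of the processing in the sex differences of Junb and Ier2 was not tested.

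The question whether the members varied together apart from genotype was put to the differences within strains. For each strain the male minus female difference of Fos was set against that of each other member, which removes what both pools of a strain share. The correlation with Fos was 0.59 for Egr1 (two-sided permutation p = 0.00188; rho = 0.58, p = 0.00282), and 0.50 without A/J and NOD/LtJ, the strains with the Fos differences farthest from the median. It was 0.51 for Ier2 (permutation p = 0.0107, rho = 0.51 with permutation p = 0.0106), 0.50 without both, and 0.44 to 0.60 with 1 strain left out. Many Ier2 values, however, lay close to the median of their sex. The largest Ier2 deviations from the sex mean were 0.81 in the female MRL/MpJ, 0.68 in the female NOD/LtJ and -0.48 in the female KK/HIJ pool. Egr3 had 0.44 (permutation p = 0.0245; rho = 0.42, p = 0.036) and 0.36 without both strains, and Dusp1 had 0.44 (permutation p = 0.0336; rho = 0.39, p = 0.0561) and 0.26 without both. Junb had 0.55, or 0.39 without both strains, but no test is given. Of its 25 female values 24 were not above 4, and many male values lay close to their median of 4.72.

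Jun had 0.41 (permutation p = 0.044; rho = 0.26, p = 0.21) and 0.28 without both strains, and Nr4a1 had 0.19 (permutation p = 0.36; rho = 0.14, p = 0.514) and -0.08 without both. A/J and NOD/LtJ, with Fos 1.92 and 0.93 lower in the male than in the female pool, thus carry part of the relations of Dusp1 and Jun. P/J had nearly the same Fos difference as NOD/LtJ (-0.93) and was kept in these values. Without P/J alone the correlation of Jun was 0.48, its highest with 1 strain left out. Without SM/J and PL/J the correlations were 0.60 for Egr1, 0.51 for Ier2, 0.44 for Egr3, 0.43 for Dusp1, 0.40 for Jun and 0.17 for Nr4a1. These 7 relations are part of 14 computed, the other 7 being over strain means. In the limma fit of Fos over all 22204 other probe sets, 0 were called in either direction (0%), with 384 at an unadjusted p under 0.05 and a lowest adjusted p of 0.475, and no member passed. Ranked by correlation with Fos among 11230 genes, Egr1 was at place 3, Junb at 7, Ier2 at 17, Egr3 at 58, Dusp1 at 65, Jun at 114 and Nr4a1 at 1634.

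**Figure D4:**
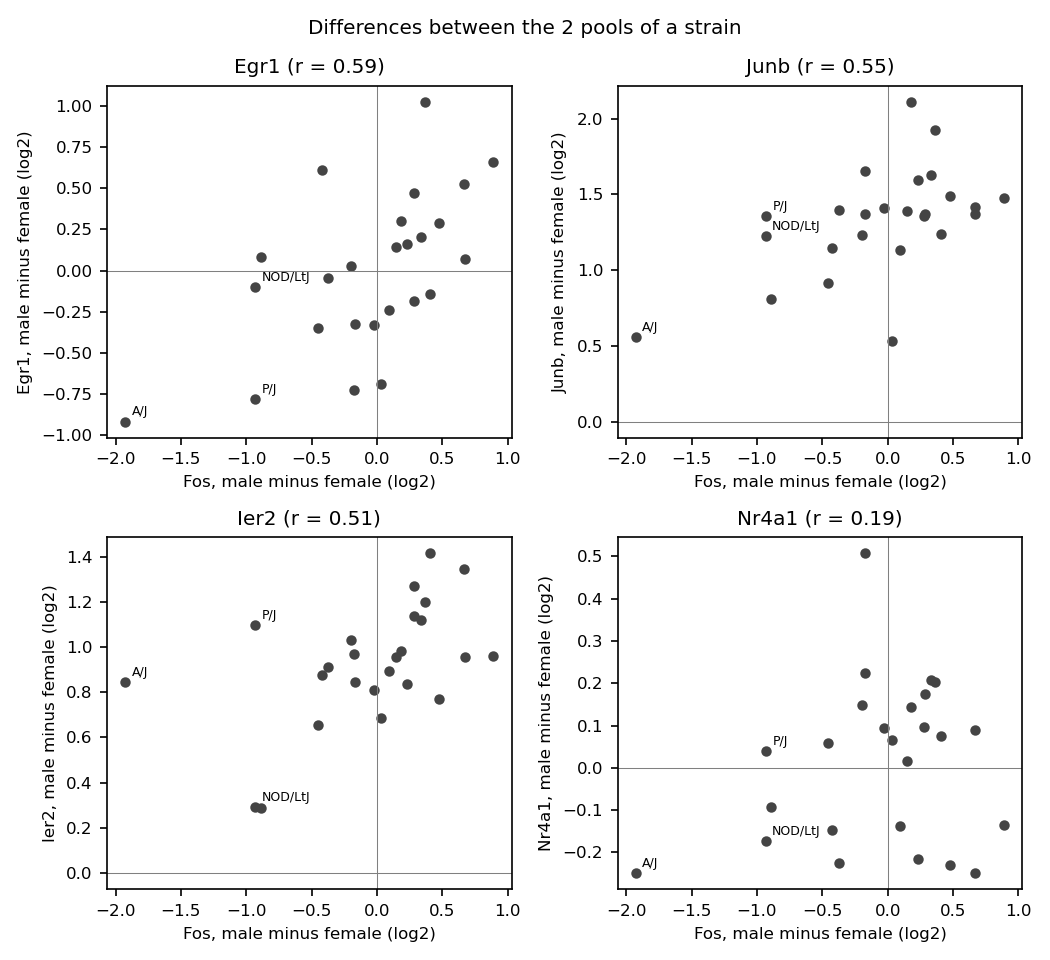
Male minus female difference (log2) of Egr1, Junb, Ier2 and Nr4a1 against that of Fos, with 1 point per strain (n = 25) and A/J, NOD/LtJ and P/J named. The correlation is 0.59 for Egr1, 0.55 for Junb, 0.51 for Ier2 and 0.19 for Nr4a1, and A/J lies farthest to the left in each panel.

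Over strain means, which keep only what is averaged over both pools, the order of the members was another. Dusp1 had the highest correlation with Fos, 0.54 (permutation p = 0.00503; rho = 0.61, p = 0.00149), and 0.63 without P/J and FVB/NJ, the strains farthest from the median of Fos. Egr1 had 0.47 (permutation p = 0.0168; rho = 0.50, p = 0.0118) and 0.48 without both. Without SM/J and PL/J these were 0.53 and 0.47. Ier2, Jun, Junb, Nr4a1 and Egr3 lay between 0.21 and 0.29. The limma fit over strain means called 11 probe sets positively (0.0495%) and 5 negatively (0.0225%) with Fos, and no member, with an adjusted p of 0.129 for Dusp1 and 0.167 for Egr1. Dusp1 stood at place 270 of 11230 genes and Egr1 at place 530. Egr3, the member with a strain difference, was among the least related to Fos over strain means, with r = 0.21.

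Of the 28 pairs among the 8 members, 25 (89.3%) were positively correlated within strains, with a median of 0.28 and a range of -0.13 to 0.59, and 26 (92.9%) over strain means, with a median of 0.24 and a range of -0.16 to 0.59. Over all pairs of genes tested the medians were 0.03 within strains and 0.02 over strain means, with 54.0% and 52.8% positive. Without Junb, left out after seeing the data, 18 of 21 pairs were positive within strains with a median of 0.26, and 20 of 21 over strain means with a median of 0.26. The closest pairs were Fos with Egr1 within strains and Egr1 with Dusp1 over strain means. These values are descriptions: the points share arrays, and pairs of 8 genes are not independent.

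Genes outside the set that followed Fos most closely within strains were Supt3 (r = 0.63), Klf2 (0.62), a Krüppel-like factor that is itself a fast-response gene, Tbc1d17 (0.58), Pigv (0.58), 1500009C09Rik (0.56), Pik3ap1 (0.55), Ppp4r3a (0.54), Dnmbp (0.54), Tardbp (0.53) and the globin gene Hbb-b2 (0.53). The most negative were Ctns (-0.70), Trmt61a (-0.62), Wee1 (-0.61), Tigd5 (-0.59) and Catsperz (-0.57). Over strain means Chmp5 (0.83), Chmp4b (0.74), Bbs5 (0.74), Papola (0.73) and Rab18 (0.73) were closest. Each of them had its lowest strain mean in P/J, as did Fos, and the part of P/J in these correlations was not tested. The first 15 were not called by limma, with a lowest adjusted p of 0.671, and the last 5 had an adjusted p of 0.048, the lowest of that fit. The call over strain means was lost under other settings given at the close.

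In single arrays, the mean deviation of the 8 members from the mean of their sex was highest in the female NOD/LtJ pool (0.56, with 8 of 8 members above), followed by the female A/J pool (0.52, 7 of 8), the male AKR/J pool (0.46, 8 of 8) and the female AKR/J pool (0.31, 7 of 8). It was lowest in the female NZO/HILtJ pool (-0.40, 1 of 8) and the male 129S1/Sv1mJ pool (-0.35, 0 of 8). These counts include small deviations, such as 0.01 for Junb in the male AKR/J pool. The pools of a strain lay on the same side in 14 strains, above in 6 and below in 8, and on opposite sides in 11.

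Blood and macrophage markers moved with the members in some arrays and not in others. The list of red blood cell markers, of which 2 were tested (Alas2 and Slc4a1), deviated by 0.82, 1.18, 0.999 and 0.79 in the 4 highest arrays above, and the granulocyte list by 1.40, 1.02, 1.31 and 2.29. In the 2 lowest arrays they were at -0.57 and -0.05 for red blood cells and -0.26 and -0.77 for granulocytes. Over all 50 arrays the red blood cell list ran from -0.79 in the male BUB/BnJ pool to 1.89 in the female NON/LtJ pool. The granulocyte list ran from -1.65 in the male BUB/BnJ pool to 2.69 in the male C3H/HeJ pool. The members deviated by 0.19 in the male BUB/BnJ, -0.08 in the female NON/LtJ and -0.01 in the male C3H/HeJ pool. In the male NOD/LtJ pool 8 of 8 members were above the mean of males (0.24), but Junb by 0.01, Nr4a1 by 0.02, Ier2 by 0.04 and Fos by 0.05 only. Red blood cells were there at -0.04, granulocytes at -0.22 and macrophages at 0.20. Macrophage markers deviated by 0.55, 0.26, 0.29 and 0.47 in the 4 highest arrays and by -0.39 and -0.42 in the 2 lowest. In the array next below the 4 highest, the female SM/J pool (members 0.30), red blood cells were at -0.23, granulocytes at 0.83 and macrophages at -0.41. Within strains, both tested red blood cell markers correlated positively with Fos, with a median r of 0.41, as did 4 of 5 granulocyte markers with a median of 0.02 and 4 of 9 macrophage markers with a median of -0.02. Over strain means all tested markers of the 3 lists were positive, with medians of 0.40, 0.42 and 0.28, against 49% of all genes and a median of -0.01. Their part in the differences of the members was not tested. In tissue samples, fewer cells of a type and less RNA per cell cannot be told apart.

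**Figure D5:**
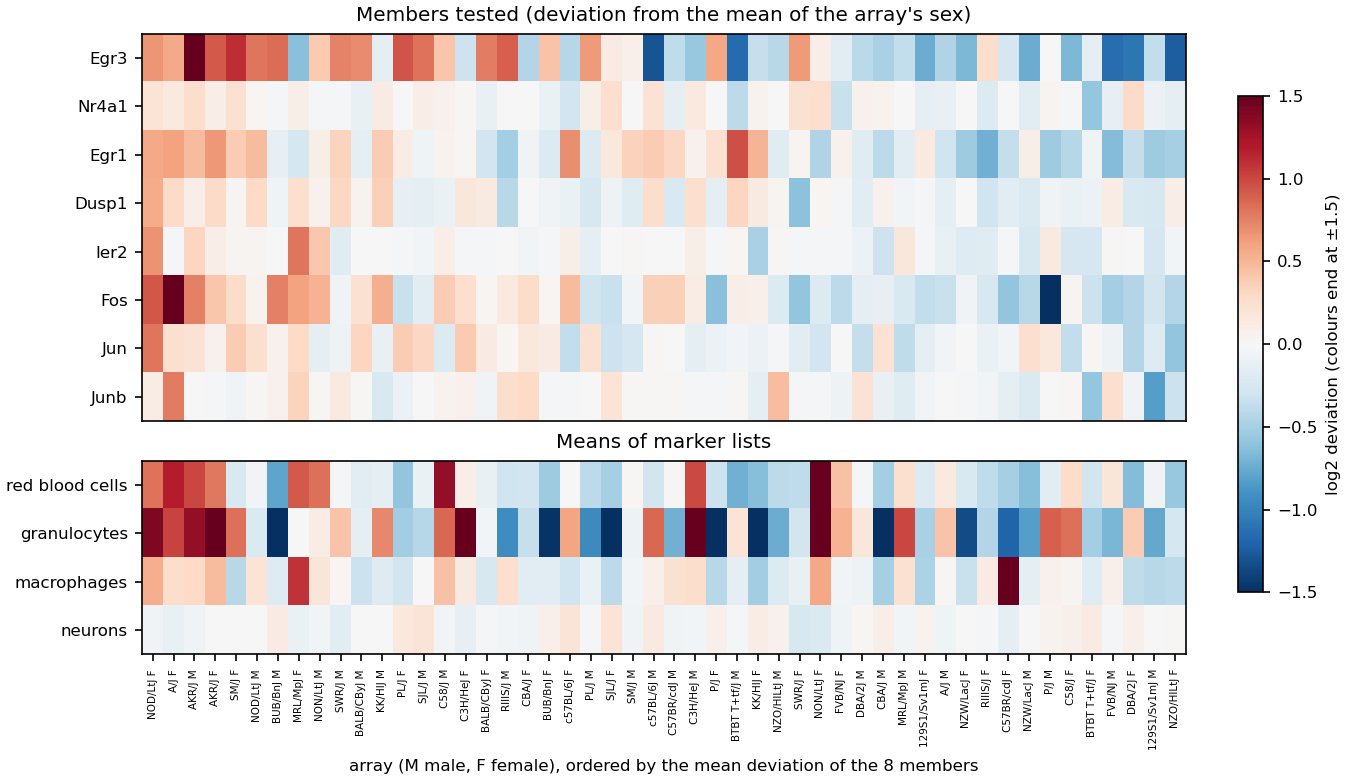
Deviation of each of the 8 members tested from the mean of the array's sex (upper panel, log2) and of 4 marker list means (lower panel) in 50 arrays ordered by the mean deviation of the members. The female NOD/LtJ, female A/J and male AKR/J arrays at one end average 0.56, 0.52 and 0.46, and the female NZO/HILtJ array at the other end averages -0.40.

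The wider fast-response program was read from a list of 48 other genes, 39 of which were tested. For strain, 11 of 39 were called, 28.2%, beside 26.2% of all genes tested. Hbegf, a growth factor of the EGF family, had the widest range, 3.64, from 7.96 in C3H/HeJ to 4.32 in 129S1/Sv1mJ (limma adjusted p = 3.69e-06). Btg2, an antiproliferative gene, ranged by 2.43 from 6.50 in MRL/MpJ to 4.07 in NZO/HILtJ (limma adjusted p = 4.80e-06), Bdnf, a neurotrophin, by 1.71 from 8.11 in C58/J to 6.39 in SWR/J (limma adjusted p = 0.0220) and the AP-1 subunit Fosl2 by 1.54 from 6.59 in SJL/J to 5.04 in DBA/2J (limma adjusted p = 0.000684).Within strains, 32 of the 39 (82.1%) were positively correlated with Fos, with a median of 0.14, against 52.1% and a median of 0.01 over all genes, and no gene of the list was called.

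Upstream and neighbouring pathways were read in the same way, beside 52.1% of all genes positive with Fos within strains and 26.2% called for strain. Of 16 tested regulators of these genes, 12 were positive with Fos within strains, with a median of 0.11, and 4 were called for strain, of which Camk4, a calcium-dependent kinase, ranged by 3.23 and Elk4, a partner of serum response factor, by 1.14. Of 11 heat shock genes, which report protein stress, 10 were positive with a median of 0.15, and 3 were called for strain, with Hspa1a ranging by 2.72 and Hspa1b by 2.04. Of 10 nerve injury genes 3 were positive, with a median of -0.09, and 5 (50%) were called for strain, with the neuropeptide genes Nts and Gal ranging by 3.60 and 2.56, and of 12 clock genes 7, with a median of 0.02. Of the clock genes, the output gene Dbp was called for strain, with a range of 2.14. No gene of these lists was called with Fos within strains.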

How the data were processed

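Each array came as a deposited column of intensities on a linear scale, computed by the authors with GCRMA, which corrects background and normalizes probe signals. The submitters' processing notes name GCRMA and R 2.6.2 for this step. The labels' protocols record pooled total RNA, biotin label and single amplification on Affymetrix arrays. The values ran from 1.629 to 36604, and no further normalization was applied to the 50 arrays. Array medians were 9.43 to 10.27 in male and 9.46 to 10.53 in female arrays, in linear units.

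The log2 of the value + 1 was used. After 64 control probe sets were left out, a probe set was tested if above log2 4 in at least 2 arrays. Of 45037 probe sets, 34945 had exactly 1 symbol, 932 several and 9160 none in the platform annotation, and 34741 matched a RefSeq gene with 0 symbols updated. The leading probe set of a gene is that of highest mean among those tested.

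Strain, single strain, sex and Fos fits used limma 3.58.1 (lmFit and eBayes) in R 4.3.3, with Benjamini-Hochberg adjustment over all probe sets tested and a threshold of 0.05. Correlations used two-sided permutation tests of 100000 resamples. P-values measure only the spread between these pools. The scripts were tested on simulated data.

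The text names all members with the strains of their highest and lowest mean and those called, of the list of other fast-response genes up to 4 by range, of further lists up to 2, and the genes most like Fos (10 positive and 5 negative within strains, 5 over strain means). Strains named in other sentences were chosen after their values were seen. The members and lists were chosen with earlier results of these data known. Alternatives were the pseudocount, the filter, the normalization between arrays, the sex term, the Gapdh signal ratio, Junb or Egr1 in place of Fos, and leaving out arrays or strains.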

Additional observations from a re-analysis of the deposited data

How the results depend on the processing

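Egr3 kept its strain call under all alternatives run, with limma adjusted p-values of 0.000508 to 0.00333 when 1 array was left out and of 0.000904 to 0.0336 under the other settings. The number of members called for strain was 1 to 2 with 1 array left out, and 2 without the 2 arrays of highest Gapdh 3' minus 5' signal, where Egr1 was added (adjusted p = 0.0454). Probe sets called for strain numbered 4805 to 8304 with 1 array left out, the highest without the male P/J array, and 2752 with no sex term, against 5475. Single strain calls of members numbered 1 to 3 with 1 array left out, and 1 with no filter on low values, where Fos in P/J had an adjusted p of 0.0701. The sex test called 3 members. 1 of them was Junb, which was tested only through its male values, and another was Ier2, whose difference is given as a description. The count was 3 to 3 with 1 array left out and 1 with a filter at log2 6, which leaves Junb and Ier2 untested. The Junb sex difference, given as a description only, ran from 0.69 to 1.42 over the other settings.

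No member was called with Fos under any setting run. Of all probe sets, 0 were called within strains, or 1 with Junb in place of Fos. Over strain means, 16 were called, against 0 to 507 when 1 strain was left out (507 without c57BL/6J), 0 with no pseudocount, with quantile normalization, with arrays centred on their medians, without the 2 Gapdh arrays, with the Gapdh covariate and with Egr1 in place of Fos, 1 with no filter, 2 with Junb in place of Fos, 42 without SM/J and PL/J, and 50 with the filter at log2 6. The causes were not tested. The correlation with Fos within strains ran from 0.48 to 0.65 for Egr1 and from 0.39 to 0.64 for Junb when 1 strain was left out. No result changed sign with 1 array or strain left out or under the settings above, but the correlation of Nr4a1 with Fos within strains, 0.19, was -0.08 without A/J and NOD/LtJ.

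The limits are 2 pools a strain, a floor that hides Fosb, Arc and most female Junb values, and sexes that cannot be told apart from their processing.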
